A study of Mus musculus with 8 samples.

Results

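Macrophages from Zc3h12a-/- mice were compared with wild-type macrophages after 2 h of lipopolysaccharide (LPS), on 2 of the 8 Affymetrix arrays of the study. The wild-type cells and the cells labelled Zc3h12a-/- were treated alike: both came from the peritoneal cavity of thioglycollate-injected mice (the irritant calls macrophages into the cavity), and both received LPS at 100 ng/ml. The other 6 arrays held the same genotypes at 0, 1 and 4 h. Each genotype and time had 1 array, so the 2 h difference is a value without a test. The sources used here do not give the allele's construction, the strain background, the age or sex of the mice, or the number of mice behind an array.

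Zc3h12a encodes Regnase-1, an endoribonuclease that cuts stem-loops in the 3' untranslated regions of inflammatory mRNAs and so shortens their life. LPS, sensed by the receptor TLR4 on macrophages, sets off NF-kB and MAP kinase signalling and the transcription of cytokine genes, followed by an interferon response. Regnase-1 is itself part of the LPS response: its protein is broken down and its mRNA induced early after stimulation. Il6 is the best known of its target mRNAs.

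The deposited values are log2 RMA values, a scale on which a difference of 1 is 2-fold, and each gene was read from the probe set with its highest mean over the 8 arrays. The levels of different genes are not comparable on this scale. Where a pair of levels is given below without further words, the first is the wild-type and the second the Zc3h12a-/- array of 2 h. The main Zc3h12a probe set read 8.87 in wild type and 8.75 in the Zc3h12a-/- array at 2 h, and the second probe set lay near background at 3.31 and 3.22. The sources used here do not place these probes relative to the deleted part, so they do not check the labels, and each direction below rests on the label. Background was set per array by bacterial control probe sets, at 3.26 on the wild-type and 3.21 on the Zc3h12a-/- array of 2 h, and 79.9% and 84.0% of the 12540 genes kept lay above it. For RNA quality, Actb's 3' control probe set exceeded its 5' one by 2.43 and 2.52, and Gapdh's by 3.16 and 3.04. The defining macrophage markers Csf1r, the receptor for colony stimulating factor 1 (13.09 and 13.05), and Cd68, a lysosomal membrane protein (12.69 and 12.74), both picked after their values were seen, were strong and alike on both arrays.

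At 2 h, 247 genes were at least 2-fold higher in the Zc3h12a-/- array, which is 1.97% of the 12540 genes, and 356 genes, or 2.84%, were at least 2-fold lower. The counts of list members below are to be read against these shares. The split moved with scaling, to 292 higher and 237 lower after cyclic loess and to 214 and 479 after centring on housekeeping genes. The large differences lay mainly on the higher side. There were 67 genes at least 4-fold higher and 23 at least 8-fold higher, against 29 and 5 lower by as much. The median of all genes was -0.06 (0.00 after cyclic loess and -0.16 after housekeeping centring), and 95% of genes lay between -1.03 and 0.87. Sprr2d, Npy, Sprr2f and Rnase2a formed the top of the list, and Hal, Gdpd3, Gdf3 and Ifi27l2a the bottom.

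**Figure D1:**
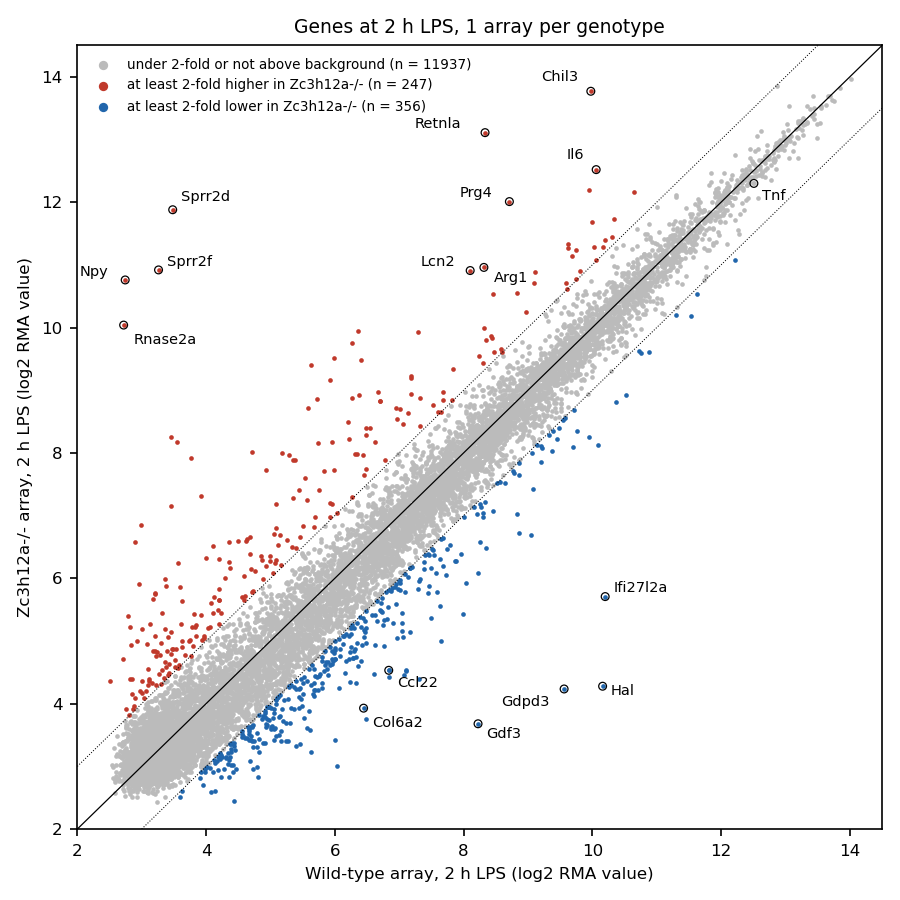
Level of each of the 12540 genes on the 2 h arrays, wild type on the horizontal and Zc3h12a-/- on the vertical axis (log2 RMA values, 1 array each). The solid line marks equal levels and the dotted lines 2-fold; 247 genes (red) lie above and 356 (blue) below, and Sprr2d, Npy, Sprr2f and Rnase2a stand far above the diagonal at low wild-type levels.

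The largest differences were in the Sprr2 family, small proline-rich proteins best known as building blocks of the cornified envelope of squamous epithelium. Sprr2d read 2.77, 2.97, 3.48 and 3.12 in wild type at 0, 1, 2 and 4 h, and 3.33, 9.49, 11.88 and 11.79 in the Zc3h12a-/- arrays. At 2 h this was a difference of 8.40, or 337-fold. Sprr2f read 3.26 on the wild-type and 10.92 on the Zc3h12a-/- array of 2 h, where wild type lay at the background level to the digits given, so it was higher by at least 7.66 (at least 202-fold). Before LPS wild type was at background in both genes, and the Zc3h12a-/- levels of 3.33 and 3.30 were higher by at least 0.27 and 0.24. The Zc3h12a-/- level of each was higher at 2 h than at 1 h. Sprr2h read 2.90 and 6.57 at 2 h and Sprr2j-ps, a pseudogene of the family, 2.99 and 6.84, with wild type at background, so they were higher by at least 3.31 and 3.59 on the log2 scale. Sprr2k, chosen after its value was seen, read 3.36 and 5.19. Of the 8 small proline-rich and epithelial barrier genes that were kept, 5 were at least 2-fold higher and 0 lower, with a median of 2.76 (0.04 with no filter on low values, which adds the 7 named members left out). Of the 5, 3 (Sprr2d, Sprr2h and Sprr2j-ps) passed the filter only with the help of the Zc3h12a-/- arrays, so neither the count nor the median speaks for the list. These 5 are all Sprr2 genes that lie next to each other among the kept genes. Family members share sequence, so how the signal divides between them is uncertain.

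The Sprr2 genes with a RefSeq promoter entry are shown because they were higher together at 2 h, and that of Il6, the best known Regnase-1 target, is set beside them. Each run covers the 250 bases before the gene's start on the plus strand (RefSeq, GRCm38.p6). The intervals are chr3:92338890-92339139 for Sprr2d, chr3:92364937-92365186 for Sprr2f, chr3:92385435-92385684 for Sprr2h, chr3:92432332-92432581 for Sprr2k and chr5:30012864-30013113 for Il6. Capitals mark the AP-1 element TGACTCA, searched on both strands, and in Il6 also the match to the NF-kB consensus.
Sprr2d: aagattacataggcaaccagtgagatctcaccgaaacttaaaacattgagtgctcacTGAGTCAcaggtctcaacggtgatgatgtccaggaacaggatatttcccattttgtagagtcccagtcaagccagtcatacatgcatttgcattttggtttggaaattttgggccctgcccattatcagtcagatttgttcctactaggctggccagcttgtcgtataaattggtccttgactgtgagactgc
Sprr2f: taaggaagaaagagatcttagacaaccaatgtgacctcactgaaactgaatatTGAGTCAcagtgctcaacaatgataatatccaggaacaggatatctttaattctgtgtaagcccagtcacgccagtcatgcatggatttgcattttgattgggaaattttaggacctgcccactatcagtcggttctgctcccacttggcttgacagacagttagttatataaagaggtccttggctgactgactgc
Sprr2h: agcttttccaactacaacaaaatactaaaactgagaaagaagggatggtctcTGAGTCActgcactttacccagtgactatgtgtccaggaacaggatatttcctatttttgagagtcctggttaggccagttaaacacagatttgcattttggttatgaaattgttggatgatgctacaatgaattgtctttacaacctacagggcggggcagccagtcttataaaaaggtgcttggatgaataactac
Sprr2k: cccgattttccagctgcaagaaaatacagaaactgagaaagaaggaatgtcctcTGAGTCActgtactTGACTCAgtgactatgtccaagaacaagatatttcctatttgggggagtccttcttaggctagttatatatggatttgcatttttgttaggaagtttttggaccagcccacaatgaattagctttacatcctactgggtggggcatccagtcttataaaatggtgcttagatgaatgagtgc
Il6: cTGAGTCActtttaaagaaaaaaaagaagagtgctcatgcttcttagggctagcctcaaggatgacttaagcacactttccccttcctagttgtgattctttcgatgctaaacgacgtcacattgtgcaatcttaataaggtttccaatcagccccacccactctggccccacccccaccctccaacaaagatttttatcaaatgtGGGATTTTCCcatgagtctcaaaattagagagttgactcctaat

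All 4 Sprr2 promoters held an AP-1 element at nearly the same distance, starting 193 bases before the start of Sprr2d, 197 before Sprr2f, 198 before Sprr2h and 196 before Sprr2k. Sprr2k held another, 182 bases before its start. The promoters are related copies, with pairwise identity from 57% to 80.6%, so these are not independent matches. In Il6 an AP-1 element started 249 bases and the NF-kB match 44 bases before the start. Over all 32851 promoters of the table, cut to the same 250 bases, 4.46% held the AP-1 element, against 9.52% of the 231 promoters of genes higher at 2 h and 2.91% of the 378 promoters of genes lower. The 231 promoters belong to 180 genes and the 378 to 283, so some genes count more than once. The 4 Sprr2 promoters and that of Il6 are among the 22 matching promoters of genes higher. The reference was not limited to promoters of genes kept here, and these shares have no test. A match says only that the letters are present.

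Il6, the interleukin-6 gene, was at background in wild type before LPS and read 7.97, 10.06 and 11.49 there at 1, 2 and 4 h. The Zc3h12a-/- arrays read 3.42 at 0 h and then 11.50, 12.52 and 12.49. The 2 h difference was 2.46, or 5.50-fold. It lay between the differences of 3.53 at 1 h and 1.00 at 4 h, and the Zc3h12a-/- array was the higher at each of the 3 LPS times. Calcr, which encodes the calcitonin receptor, was at background in wild type (3.01) and read 5.19 in Zc3h12a-/- cells at 2 h, at least 3.82-fold higher. At 1 h it had read 2.89 and 2.91, both at background, so its difference was first seen at 2 h. On the log2 scale the difference was at least 1.94 at 2 h and, with wild type again at background, at least 2.90 at 4 h.

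A further group of genes shared the Sprr2 pattern of little difference before LPS and a large one at 2 h. Plet1, an epithelial surface protein gene, read 6.36 on the wild-type and 9.95 on the Zc3h12a-/- array of 2 h, a difference of 3.59. At 0 h it had read 2.78, at background, and 3.07. Its other probe sets, both dimmer, differed by 2.64 and 0.62 at 2 h. Layn, which encodes the hyaluronan receptor layilin, read 5.63 and 9.41 (3.78 at 2 h, 0.45 at 0 h), with 1.73 on a second probe set. Penk, the proenkephalin gene, read 4.71 and 8.02 (3.30 at 2 h, 0.68 at 0 h). The differences of these genes at 4 h were 3.63, 4.18 and 3.66. Gfpt2, an enzyme of hexosamine synthesis, read 5.34 and 7.89 at 2 h, and its difference of 2.55 was smaller at 4 h, at 1.26. Abca13, a lipid transporter gene of the ABC family, read 3.36 and 5.99, and the acid phosphatase gene Acpp 3.37 and 5.88. Acpp was at background on both 0 h arrays by this probe set, but a second one, at background in wild type, read 2.88 and 4.52 at 0 h and 3.05 and 3.96 at 2 h, so it was apart before LPS. F3, which encodes tissue factor, the starter of coagulation, was chosen after its value was seen. It read 8.31 and 9.99 at 2 h, a difference of 1.68, against -0.02 at 0 h.

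**Figure D2:**
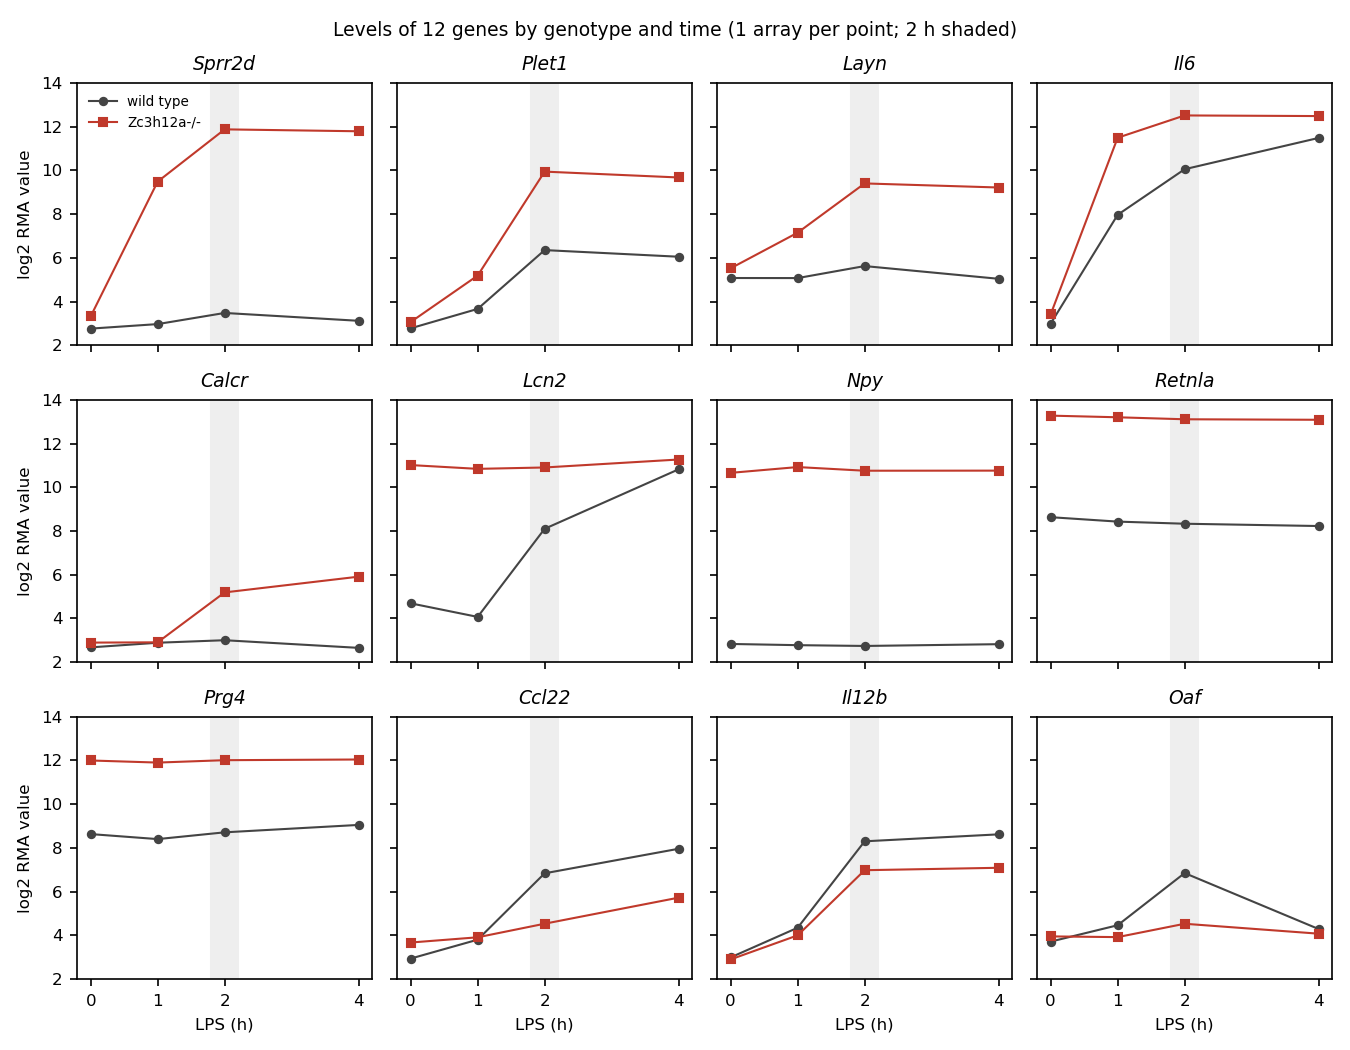
Levels of 12 genes (log2 RMA values) against hours of LPS in wild type (grey circles) and Zc3h12a-/- cells (red squares), 1 array per point, with 2 h shaded. Sprr2d, Plet1, Layn, Il6 and Calcr part after LPS, Npy, Retnla and Prg4 lie apart at all 4 times, Lcn2 closes its gap, and Ccl22, Il12b and Oaf are lower in Zc3h12a-/- cells at 2 h.

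Among the mRNAs reported as Regnase-1 targets, 6 of 18 kept genes were at least 2-fold higher at 2 h and 1 lower. Their median was 0.36, against -0.06 for all genes. Part of this list was drawn up on cells of this kind, so its direction is not independent evidence. Besides Il6 and Calcr, the higher genes were Lcn2, Egln3, Tfrc and Icos. Calcr passed the filter only with the help of the Zc3h12a-/- arrays, so its call does not speak for the list. Lcn2, the iron-scavenging lipocalin, read 4.69, 4.07, 8.10 and 10.82 in wild type and 11.02, 10.84, 10.91 and 11.27 in Zc3h12a-/- cells. Its 2 h difference of 2.80 was thus a narrowing of the 6.77 seen at 1 h, since wild type came up while Zc3h12a-/- cells stayed level. Tfrc, the transferrin receptor gene, read 10.30 and 11.45 at 2 h, and its difference of 1.15 resembled the 1.49, 1.25 and 1.38 of the other times. Over 0, 1 and 4 h, in arrays that the 2 h difference does not use, limma gave 1.37 (SE 0.10, adjusted p = 0.00386). The 3 times stand in for replicates in this fit. Its SE and p-values, here and below, measure how steady the difference was over time. They do not measure how mice or cell preparations vary. Egln3, an oxygen-sensing prolyl hydroxylase gene, read 4.20 and 5.66, and Icos, a T cell costimulatory receptor gene, 4.73 and 5.80. A dimmer second Icos probe set, also above background (3.76 and 3.89), differed by only 0.13. Il12b, the interleukin-12 p40 gene, was the lower one, with 8.30 and 6.98 at 2 h, and 6.35 and 4.76 on its second probe set.

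Other central cytokines differed little at 2 h. Tnf read 12.51 in wild type and 12.30 in Zc3h12a-/- cells, Il1b 13.28 and 13.23, and Nfkbia, the gene of the NF-kB inhibitor, 13.21 and 13.18. Il10 read 7.53 and 6.90, a difference of -0.63 after -2.85 at 1 h. Of 22 kept interleukin, TNF and colony stimulating factor genes, 2 were at least 2-fold higher and 2 lower, with a median of -0.02. The higher ones were Il6 and Osm, the oncostatin M gene (8.24 and 9.55). Il12b and Ebi3, which encodes a subunit shared by heterodimeric interleukins (a difference of -1.06), were the lower ones.

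Chemokines had 4 of 24 kept members higher and 1 lower, with a median of 0.09. Ccl24, an eosinophil attractant, read 3.76 and 7.92 and was as far apart at every time. Cxcl13, a B cell attractant, read 10.65 and 12.16, and the platelet factor 4 gene Pf4 9.59 and 10.71. Cxcl11, an interferon-induced ligand of CXCR3 named after its value was seen, read 5.93 and 6.97. Ccl22, a ligand of CCR4, read 2.94, 3.80, 6.84 and 7.96 in wild type and 3.67, 3.91, 4.53 and 5.72 in Zc3h12a-/- cells. It was thus lower by 2.31 at 2 h and 2.24 at 4 h, on the log2 scale, after positive differences of at least 0.61 at 0 h, where wild type was at background, and 0.11 at 1 h.

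The signalling arms of the LPS response, with the RNA decay factors, held 7 genes 2-fold apart among 111 kept, or 6.31%, against 4.81% of all genes called either way. Among NF-kB subunits, targets and feedback regulators, 0 of 19 kept genes were 2-fold apart, with a median of -0.22. The most distant was Cd40, a costimulatory receptor gene (11.76 and 10.82). Toll-like receptor and LPS signalling genes had 0 of 22 apart and a median of -0.07. Of 27 immediate early and early response factors, Nr4a3, an orphan nuclear receptor gene, was higher (8.59 and 9.66) and Jun, an AP-1 subunit, lower (6.40 and 5.39), with a median of 0.21. A dim second Jun probe set differed by 0.78, in the opposite direction. SOCS, DUSP and other feedback genes had 1 of 23 higher, the STAT5-induced Cish (7.84 and 9.34), and 3 lower. These were Spry2 (7.97 and 6.39), an inhibitor of receptor tyrosine kinase signalling, the pseudokinase gene Trib1 (5.66 and 4.15), and Dusp6 (7.64 and 6.62), an ERK phosphatase gene. Dim second probe sets differed by 0.52 for Spry2, in the opposite direction, and by -0.03 for Trib1. Of 23 RNA decay factors of the CCCH, Roquin and CCR4-NOT systems, 1 was lower, the deadenylase gene Cnot8 (6.73 and 5.68). Its difference of -1.05 compares with -0.18, -0.31 and -0.14 at the other times, and a second probe set, also above background (4.81 and 4.69), differed by only -0.13 at 2 h.

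Interferon-stimulated genes were split, with 2 of 37 kept members at least 2-fold higher and 2 lower and a median of 0.02. Iigp1, an immunity-related GTPase gene, read 9.09 and 10.71, and Slfn4 10.16 and 11.28. Dhx58, which encodes the RNA sensor LGP2, read 6.08 and 4.77. Ifi27l2a stood apart from the rest of the list, with 10.20 in wild type and 5.71 in Zc3h12a-/- cells (22.5-fold lower). It was lower by 3.11 to 4.70 at the other times and by limma over 0, 1 and 4 h by 3.95 (SE 0.30, adjusted p = 0.00396). The LPS-induced enzymes and effector genes had 6 of 23 higher and 1 lower, with a median of 0.13. Serpinb2, the plasminogen activator inhibitor 2 gene, read 9.94 and 12.19, Hdc, the histamine-forming enzyme, 4.69 and 6.66, and Slc7a2, an arginine transporter gene chosen after its value was seen, had a difference of 1.69. Mmp9, a gelatinase gene, was the lower one, with 5.60 and 3.89.

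Many of the largest differences at 2 h were of about the same size at every other time. Npy, the neuropeptide Y gene, lay at background in wild type (2.74 at 2 h) and read 10.66, 10.93, 10.76 and 10.76 in the 4 Zc3h12a-/- arrays, at least 181-fold higher at 2 h. Rnase2a, an eosinophil-associated ribonuclease gene, read 2.72 and 10.04, at least 110.4-fold higher. Retnla, which encodes the resistin-like protein RELM-alpha, read 8.33 and 13.11 (27.4-fold), and Chil3, a chitinase-like protein gene, 9.98 and 13.77 (13.8-fold). In the 6 arrays of 0, 1 and 4 h limma gave 7.97 for Npy (SE 0.11, adjusted p = 2.9e-05), 4.76 for Retnla (SE 0.10, adjusted p = 6.49e-05) and 3.90 for Chil3 (SE 0.10, adjusted p = 0.000145). The estimate for Npy uses wild-type levels at background, so its size and SE are not those of a measured difference. Vmn2r26, annotated as a vomeronasal receptor gene, read 3.46 and 8.25, and the matricellular protein gene Ccn3 3.55 and 8.18. Cd55, which encodes a complement regulator, read 3.45 and 7.15, though its 2 other probe sets, near background, differed by 0.41 and 0.49. Selp, the P-selectin gene, read 5.99 and 9.52, Cadps2, a vesicle release factor gene, 3.92 and 7.31, and BC023105 6.26 and 9.76. Orm1, an acute phase protein gene, read 5.93 and 9.16. Limma passed each of these 7 genes over 0, 1 and 4 h, with adjusted p from 0.000267 for Vmn2r26 to 0.00914 for Selp.

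**Figure D3:**
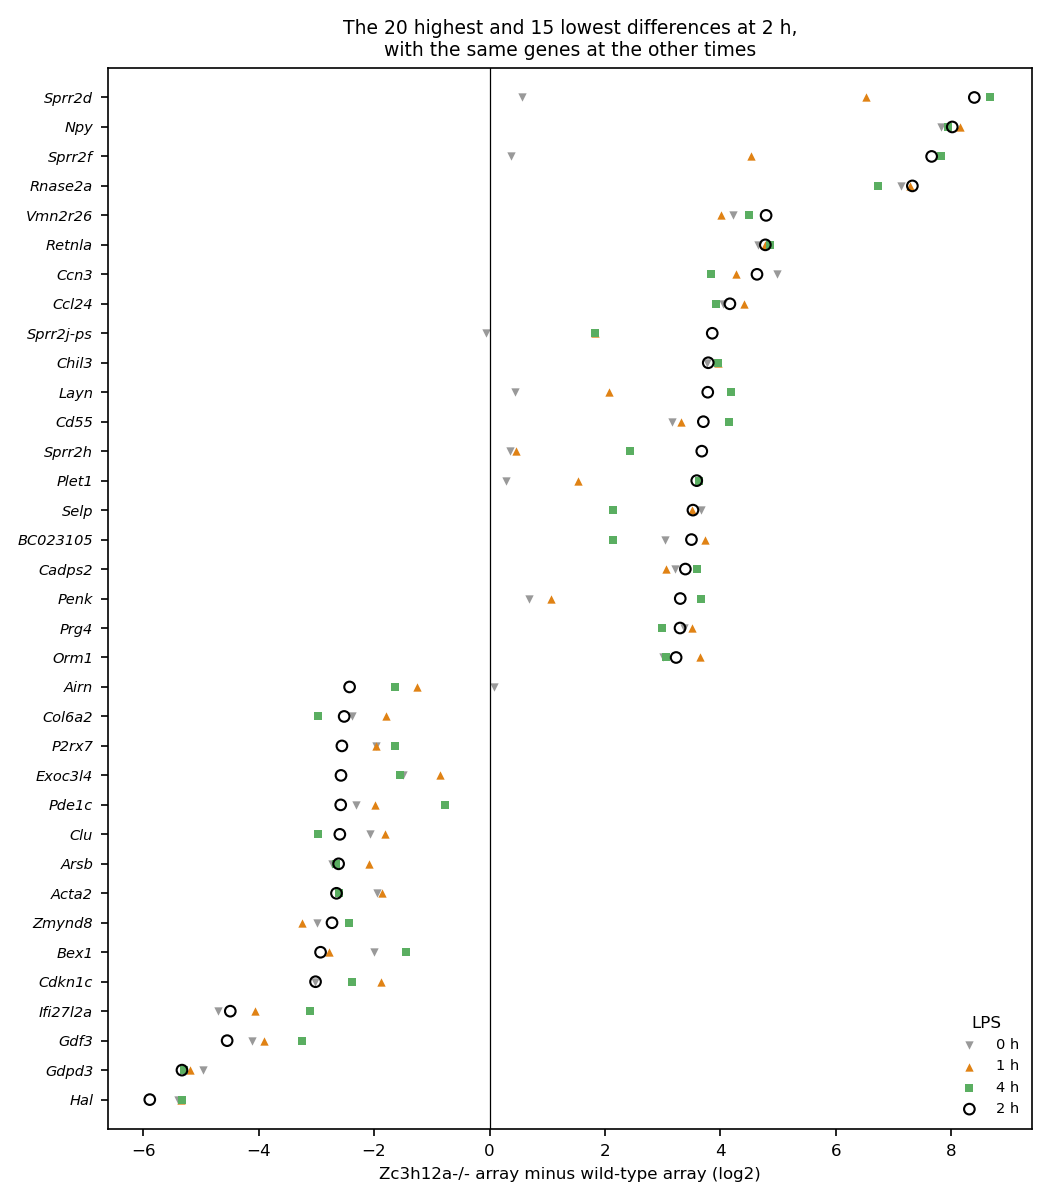
Labelled-knockout minus wild-type difference (log2) of the 20 highest and 15 lowest genes at 2 h (open circles), with the same genes at 0, 1 and 4 h (filled symbols), 1 array pair per point. Npy, Rnase2a and Retnla have all 4 points close together, whereas the 0 h points of Sprr2d, Sprr2f, Sprr2j-ps, Layn, Sprr2h, Plet1 and Penk lie between -0.06 and 0.68.

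Alternative activation markers, genes that interleukin-4 induces in macrophages, had 6 of 18 kept members at least 2-fold higher at 2 h and 3 lower, with a median of 0.66. Besides Retnla, Chil3 and Ccl24, Arg1, the arginase-1 gene, read 8.32 and 10.96, Mgl2, a galactose-binding lectin gene, 3.21 and 5.75, and Chil4, named after its value was seen, 2.83 and 4.94. Wild type was at background in Mgl2 and Chil4, so they were higher by at least 2.49 and 1.68 on the log2 scale. Chil4 passed the filter only with the help of the Zc3h12a-/- arrays, so its call does not speak for the list. The lower members were Ccl22, the scavenger receptor gene Stab1 (7.80 and 6.53) and Pparg, a lipid-sensing nuclear receptor gene chosen after its value was seen (6.35 and 4.60). By limma over 0, 1 and 4 h, 8 of the 18 were higher and 2 lower.

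Resident peritoneal macrophage markers are genes of the large macrophages that live in the cavity before any irritant. Of 18 kept members, 11 were at least 2-fold higher and 1 lower (-1.18), with a median of 1.47. Over all genes the shares were 1.97% higher and 2.84% lower. Of the 11, Nt5e, named after its value was seen (2.81, at background, and 4.40), passed the filter only with the help of the Zc3h12a-/- arrays. Its call does not speak for the list. Prg4, which encodes lubricin, read 8.71 and 12.01, Alox15, a lipoxygenase gene, 4.93 and 7.73, and F5, coagulation factor V, 5.75 and 8.16. Timd4, a phosphatidylserine receptor gene, read 5.95 and 8.17. Of members chosen after their values were seen, Vsig4, a complement receptor gene, read 9.10 and 10.89, Tgfb2 6.71 and 8.82 and Fabp7 9.74 and 11.24. Gata6, the defining transcription factor of these cells, was dim on both arrays, at 3.44 and 4.11. The list's median was 1.53, 1.52 and 1.35 at 0, 1 and 4 h, and limma called 10 members higher and 1 lower in those arrays. The array's values cannot tell more cells of a type from more RNA per cell. The part of these markers in the other differences was not tested.

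Markers of mesothelial and stromal cells ran the other way. Of 16 kept members, 9 were at least 2-fold lower in Zc3h12a-/- cells and 0 higher, with a median of -1.10 (-0.36 with no filter and -1.81 with a filter at the 75th percentile). The collagen genes Col1a2 (8.22 and 6.08), Col6a1 (7.63 and 5.56) and Col6a2 (6.45 and 3.93) and the matrix protein gene Sparc (6.61 and 4.47) were the most distant. Col1a1 (9.70 and 8.09) and Pdgfra, a growth factor receptor gene of fibroblasts (7.16 and 5.15), both chosen after their values were seen, were also lower. The list's median was -1.02, -1.03 and -0.96 at 0, 1 and 4 h, and limma called 10 members lower and 1 higher. Upk3b, a mesothelial marker, was near background on both arrays (3.03 and 3.31). The summed level of the list, dominated by Fn1, which macrophages also express, was 12.28 and 12.17 on the log2 scale. Acta2, the smooth muscle actin gene (7.64 and 4.99), and the clusterin gene Clu (7.11 and 4.52), which are not on the list, were among the 15 lowest genes.

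General macrophage markers had 1 of 21 kept members higher, the integrin gene Itgam (5.08 and 6.29), and 1 lower, Aif1 (6.76 and 4.93), with a median of -0.04 and a summed level of 16.18 and 16.16 on the log2 scale. Neutrophil markers had 4 of 9 higher and 2 lower, with summed levels of 11.53 and 12.36. S100a9, a calcium-binding alarmin subunit (5.18 and 8.01), the collagenase gene Mmp8 (5.84 and 7.71), Lcn2 and Hdc were higher, and Mmp9 and Csf3r (5.98 and 4.80) lower. S100a8, the partner of S100a9, read 11.25 and 11.39 and was the largest part of both neutrophil sums. Csf3r and S100a8 were named after their values were seen. The granule gene Camp lay near background at 3.57 and 3.28.

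B cell markers had 2 of 8 higher, Ighm, the IgM heavy chain (5.58 and 8.72), and Jchain, which joins IgM units (4.20 and 6.31). Of the 8 Ighm probe sets above background on a 2 h array, 7 were higher, 6 of them at least 8-fold, and 1 was lower, by 2.15 on the log2 scale. The B cell defining genes Cd79a (3.65 and 3.20) and Ms4a1 (3.07 and 3.63) were near background on both arrays. The list's summed level was 7.49 and 9.22, with Ighm the most of the Zc3h12a-/- sum. T and NK cell markers had 0 of 10 apart, with Cd3e at 5.01 and 5.53. Their summed levels of 12.17 and 11.84 were almost all Il7r (12.14 and 11.79). Among 9 eosinophil, mast cell and basophil markers, Rnase2a was higher, and the mast cell protease genes Cpa3 (4.89 and 3.37) and Cma1 (4.02 and 2.98) lower. Cma1 was at background in Zc3h12a-/- cells, and the bound on its difference was -0.81. Cma1 passed the filter only with the help of the wild-type arrays, so its call does not speak for the list. Siglecf, a receptor gene of eosinophils, read 5.47 and 5.28. That list's summed level was 7.32 and 10.21, and Rnase2a alone (10.04) made up most of the Zc3h12a-/- sum. Dendritic cell markers had 1 of 11 higher, the transcription factor gene Irf4 (6.95 and 8.72), and 3 lower, the integrin gene Itgax (10.88 and 9.60), Cd83 (12.22 and 11.08) and Bst2 (6.35 and 5.30), with summed levels of 12.78 and 11.81. Cd83 was the largest part of both dendritic sums. The 5 kept erythroid and platelet markers had Pf4 higher and 0 lower, with summed levels of 9.65 and 10.74, almost all Pf4 (9.59 and 10.71). These sums thus lean on few genes and do not measure the share of a cell type. The part of other cell types in the 2 h differences was not tested.

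Genes lower in the Zc3h12a-/- array were led by Hal, which encodes histidine ammonia-lyase. It read 10.59, 10.64, 10.16 and 8.37 in wild type and 5.19, 5.30, 4.28 and 3.04 in Zc3h12a-/- cells, 59.1-fold lower at 2 h. Gdpd3, a lysophospholipase D gene, read 9.56 and 4.23 at 2 h (40.1-fold), and Gdf3, a TGF-beta family ligand gene, 8.22 and 3.68 (23.3-fold). Over 0, 1 and 4 h limma gave -5.35 for Hal (SE 0.09, adjusted p = 5.41e-05), -5.14 for Gdpd3 (SE 0.11, adjusted p = 6.49e-05) and -3.76 for Gdf3 (SE 0.18, adjusted p = 0.00139). Hal was at background in Zc3h12a-/- cells at 4 h, so its difference there has only a bound. The cyclin-dependent kinase inhibitor gene Cdkn1c read 6.03 and 3.01, where Zc3h12a-/- cells were at background, so it was at least 7.05-fold lower. Bex1 read 7.31 and 4.39, and the lysosomal sulfatase gene Arsb 7.07 and 4.46. P2rx7, an ATP-gated channel gene that acts in inflammasome activation, read 7.99 and 5.43. A second P2rx7 probe set above background (5.53 and 4.82) differed by only -0.71. Pde1c, a phosphodiesterase gene, read 6.01 and 3.43. A dim second Pde1c probe set differed by 0.83, in the opposite direction, and another dim one by -0.14. Zmynd8, a chromatin reader gene, read 6.48 and 3.75, but a second probe set above background read 4.66 and 4.84. Exoc3l4 read 4.19, 4.77, 7.11 and 7.43 in wild type and 2.69, 3.92, 4.53 and 5.88 in Zc3h12a-/- cells, so that its difference was widest at 2 h, at -2.57. Airn, a long noncoding RNA that overlaps Igf2r in antisense, read 6.85 and 4.42 at 2 h and 5.90 and 5.97 at 0 h.

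Receptor and lipid genes held further single differences. Of 22 scavenger and C-type lectin receptors, 4 were higher and 2 lower, with a median of 0.29, including the collectin gene Colec12 (6.45 and 7.96) and Cd5l, a secreted macrophage protein (9.69 and 11.14). Fc receptor, complement and phagocytosis genes had 6 of 22 higher and 2 lower, with a median of 0.01. The complement genes C2 (5.28 and 7.97) and Cfb (6.97 and 8.55) were higher, and Axl, a receptor for apoptotic cells (6.33 and 4.33), lower. LXR targets and cholesterol efflux genes had 1 of 18 higher, the apolipoprotein gene Apoc1 (5.72 and 8.86), and 2 lower, with a median of -0.18. The lower ones were Nr1h3, which encodes LXR-alpha itself, at 4.73 in wild type and background in Zc3h12a-/- cells (at least 2.87-fold), and the efflux transporter gene Abcg1 (9.48 and 8.39). Sterol synthesis genes had 0 of 19 apart. Iron genes had 3 of 15 higher, Lcn2, Tfrc and the heme oxygenase gene Hmox1 (10.20 and 11.39), and 0 lower. MHC class II and costimulation genes had 0 of 15 apart and a median of 0.24, with H2-Eb1 at 11.30 and 12.11, Cd86 at 6.98 and 7.83 and Icosl at 10.53 and 9.56.

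Among core cellular programmes, 6 genes were 2-fold apart, or 4.84% of those kept, close to the 4.81% of all genes. Glycolysis and hypoxia response genes had 1 of 21 higher (Egln3) and 1 lower, Pfkfb3, a regulator of glycolysis (7.14 and 6.03). Lysosomal hydrolases had 1 of 25 lower (Arsb), cell cycle genes 1 of 25 lower (Cdkn1c) and cytosolic ribosomal proteins 1 of 21 lower (Rps6, 6.90 and 5.85). Unfolded protein and heat shock genes had 1 of 24 higher (Hmox1) and a median of 0.17. The 11 housekeeping genes had a median of 0.02, with 0 apart.

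**Figure D4:**
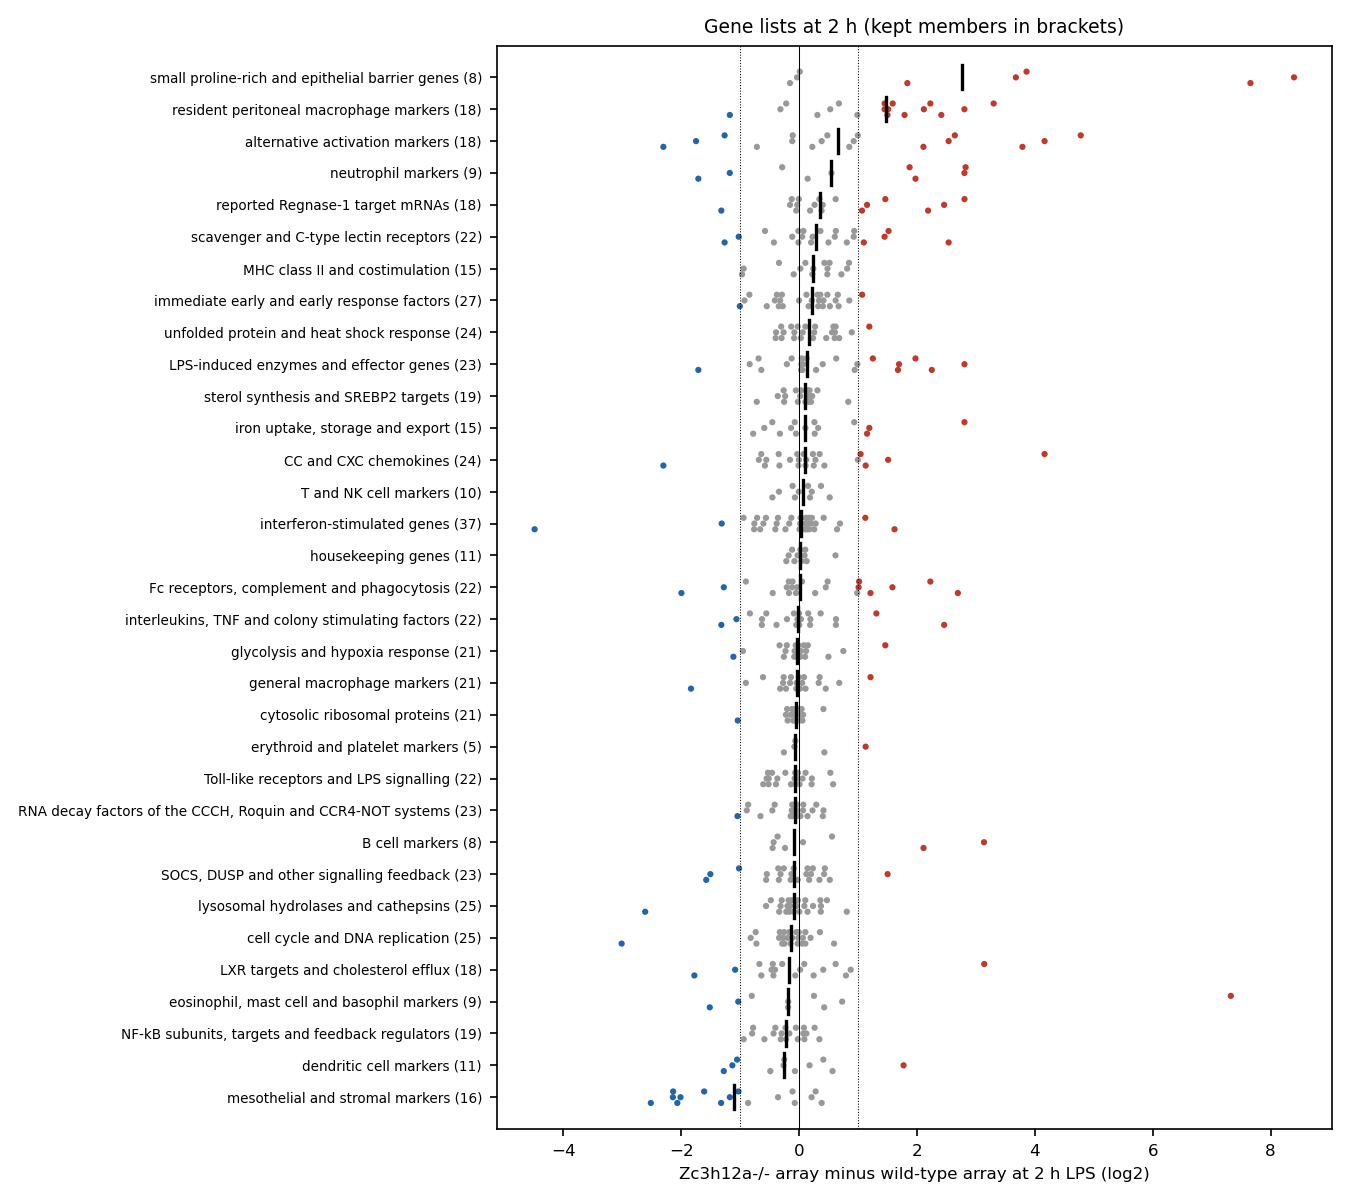
Labelled-knockout minus wild-type difference at 2 h (log2) for the kept members of 33 gene lists, 1 point per gene. Red and blue points are at least 2-fold higher and lower with the brighter array above background, black bars are list medians and dotted lines mark 2-fold. The small proline-rich list has the highest median (2.76, but 0.04 with no filter on low values, below the next list), followed by resident peritoneal macrophage markers (1.47), and mesothelial and stromal markers the lowest (-1.10).

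At the other times the same genes were often, but not always, apart. At the 2-fold threshold, 2.08% of genes were higher and 1.7% lower at 0 h, 2.02% and 1.35% at 1 h, and 1.67% and 2.2% at 4 h. Of the 247 higher genes, 93 were also at least 2-fold higher at all 3 other times and 46 at none of them. Of the 356 lower genes, 57 were lower at all 3 and 164 at none. Genes 2-fold apart at 2 h alone had small differences, with medians of 1.20 and -1.11, and only 1 in each direction reached 4-fold. These were Fap, a fibroblast surface protease gene named after its value was seen (3.59 and 5.87 at 2 h), and Oaf. The sign was the same at all 4 times for 214 of the 247 (86.6%) and 283 of the 356 (79.5%). The share of all kept genes with the same sign at all 4 times was not counted. How far these 2 shares exceed it is therefore not known. Across genes, the 2 h difference correlated with those at 0, 1 and 4 h with Pearson r of 0.680, 0.657 and 0.720 and Spearman rho of 0.572, 0.416 and 0.562. Genes are not independent replicates, and the arrays of 2 h are in none of the other differences.

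Over the 6 arrays of 0, 1 and 4 h, limma with time as a block called 284 genes higher (2.26%) and 416 lower (3.32%) at an adjusted p of 0.05. This fit uses neither 2 h array, and its replicates are the 3 times, so it shows no spread between mice or cell preparations. Among the genes 2-fold apart at 2 h, 142 of 247 (57.5%) and 166 of 356 (46.6%) passed it in the same direction, which is 50% and 39.9% of its calls. Without a 0 h array the calls were 136 and 125, without a 1 h array 176 and 222, and without a 4 h array 256 and 186. Without the time block, 32 and 7 were called.

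A second limma fit asked whether the 2 h difference departed from the mean difference of the other 3 times, and it called 0 genes (0%). An unadjusted p under 0.05 was found for 647 genes, and 120 departures of at least 2-fold did not pass. The 2 h pair was assumed to vary like the other pairs, and a genotype difference that moved between 0, 1 and 4 h counted as error. The test thus had little power for genes such as Sprr2d (departure 3.15, SE 2.95) or Il6 (0.81, SE 1.17). Among the smallest p-values were those of Oaf, which encodes a secreted protein. It read 3.71, 4.46, 6.85 and 4.29 in wild type and 3.95, 3.92, 4.53 and 4.08 in Zc3h12a-/- cells, so the wild-type 2 h array alone stood high (departure -2.15, SE 0.33). In Smarcad1, a chromatin remodeller gene, the wild-type 2 h array alone was low, at 5.08 against 6.24 to 6.48 on the other 7 arrays, and a second probe set gave a difference of -0.38. In Aar2, a spliceosome assembly factor gene, Mrps35, a mitochondrial ribosomal protein gene, and Sdhaf4, an assembly factor gene of complex II, the Zc3h12a-/- 2 h array was the lowest of the 8, at 4.23, 2.83 and 4.84. The antibacterial lectin gene Reg3b (3.06 and 4.21), Lipg, an endothelial lipase gene (3.49 and 4.88), Ints4 (5.53 and 6.32), Lrrtm4 (2.74 and 3.72) and Pip5k1b (2.84 and 3.70) had the other small p-values upward, and Etv5 (4.34 and 3.21) and Smtnl2 (4.38 and 3.36) downward. A lone array with no replicate underlies each of these. In Reg3b, Lrrtm4 and Pip5k1b the wild-type 2 h array was at background, and in Mrps35 the Zc3h12a-/- one, so their 2 h differences have only a bound.

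**Figure D5:**
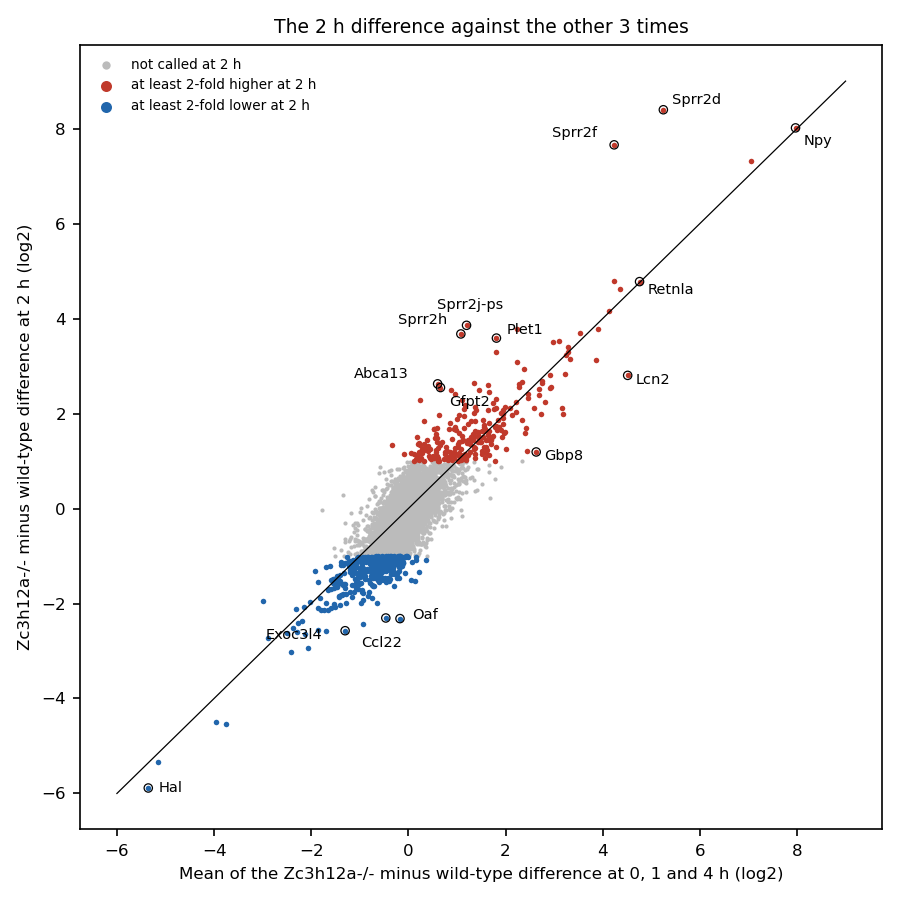
Labelled-knockout minus wild-type difference at 2 h (vertical) against the mean of the differences at 0, 1 and 4 h (horizontal), both log2, for 12540 genes. Red and blue genes are at least 2-fold apart at 2 h and the line marks equality; Npy, Retnla and Hal lie near it, Sprr2d, Sprr2f, Sprr2h and Sprr2j-ps above it, Lcn2 and Gbp8 below it, and Oaf and Ccl22 are low at 2 h alone or at 2 and 4 h.

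The change from 0 to 2 h itself ran differently in the genotypes for several genes. Sprr2d, Sprr2f, Sprr2j-ps, Layn, Sprr2h and Plet1 had the largest excess in Zc3h12a-/- cells, from 7.84 for Sprr2d to 3.30 for Plet1. Lcn2 (-3.52), Olr1 (-3.09) and Ccl22 (-3.04) had the largest deficit. Olr1, a receptor gene for oxidised lipoprotein, read 7.05 in wild type and 10.76 in Zc3h12a-/- cells at 0 h, and 11.85 and 12.47 at 2 h, so the genotypes drew together from a raised start. Ccl5, a T cell attractant, behaved alike, with 6.19 and 8.47 at 0 h and 13.02 and 13.25 at 2 h. Gbp8, an interferon-inducible GTPase gene, read 2.90 and 4.09 at 2 h after 3.41 and 6.51 at 0 h. Wild type was at background at 2 h, so Gbp8 was higher there by at least 0.84 on the log2 scale. Adamts4, an aggrecan-cleaving protease gene, came up in wild type to 5.44 at 2 h against 4.11, and Shisa3 to 4.81 against 2.82, where Zc3h12a-/- cells stayed at background (at least 3.03-fold lower).

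Grouped by the wild-type change from 0 to 4 h, which uses neither 2 h array, the 231 genes that LPS induced at least 8-fold held 27 higher (11.7%) and 15 lower (6.49%) at 2 h. The 9842 genes that changed under 2-fold held 160 (1.63%) and 183 (1.86%). Among the 95 genes repressed at least 8-fold, 1 was higher and 19 lower (20%), with a median difference of -0.36. The 1591 genes repressed 2- to 8-fold held 28 higher and 102 lower (6.41%), with a median of -0.21.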

How the data were processed

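RNA of thioglycollate-elicited peritoneal macrophages was profiled on 8 Affymetrix arrays, 1 for each of 2 genotypes and 4 times. The authors deposited log2 values for 45101 probe sets, made with RMA per the submitters' processing notes; its version and the software used are not given in the sources used here. RMA makes the arrays' distributions alike, so a shift in total mRNA cannot be seen.

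Gene names came from the platform annotation: 34945 probe sets had 1 symbol, 932 several and 9211 none. Of the former, 34741 matched the RefSeq table (GRCm38.p6) and 0 symbols changed. Each gene took its probe set of highest mean, and 12540 of 18193 genes were kept whose second-highest array reached 3.16, the median of all values. Background was the highest of 27 bacterial control probe sets per array (2.96 to 3.26). A gene at background in 1 array has only a bound, given as "at least" or called a bound. Arrays correlated with r from 0.933 to 0.988 over all probe sets, and the 2 h arrays with 0.985.

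The 2 h difference is the Zc3h12a-/- array minus the wild-type array. A gene was called at 2-fold or more with the brighter array above background. limma 3.58.1 (R 4.3.3; lmFit, eBayes, Benjamini-Hochberg over 12540 genes, threshold 0.05, 2 residual degrees of freedom) tested the genotype difference over 0, 1 and 4 h and the departure of 2 h from it. On simulated data the first fit recovered 100 of 100 genes changed by 1 log2 unit and 100 of 100 changed by 2, with 8.26% of calls false, and the second 25 and 98, with 10.9% false. The simulated noise was drawn from spreads that limma had already evened out between genes, so recovery in the real data may be lower. At 4.51 over 0, 1 and 4 h, Lcn2 did not pass the first fit. The 120 departures of at least 2-fold did not pass the second. The number of arrays limits the precision, and nothing shows how arrays of one group would vary.

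Members, lists and tests were chosen with earlier results of these data known. The text names Zc3h12a, the 20 highest and 15 lowest genes at 2 h, the 6 genes of smallest departure p each way, the 10 largest differences each way in the 0 to 2 h change, the 4 most distant members of each of 33 lists, and Il6, Il12b, Tnf, Il1b, Il10, Calcr, Nfkbia, Tfrc, Icos, Sprr2d and Sprr2f. Other genes were chosen after their values were seen. Not every gene the rule takes is printed. Motifs were searched in RefSeq promoters with Biopython 1.88 and Python 3.11.15. Alternatives were cyclic loess, housekeeping centring, other filters, fold thresholds and probe set rules, eBayes with trend and robust settings, no time block and leaving out arrays.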

Additional observations from a re-analysis of the deposited data

Results flagged for a closer look

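Of the 20 genes with the largest genotype differences in the 0 to 2 h change, 10 each way, the wild-type and the Zc3h12a-/- level moved in opposite directions in 4. Over all 188 named genes, 38 had opposite signs at any size. The excess of the Zc3h12a-/- change over the wild-type change was 3.33 for Sprr2h, -3.52 for Lcn2, -2.50 for Airn and -2.40 for E030024N20Rik, on the log2 scale. Sprr2h read 2.92 and 2.90 in wild-type cells, both at background, so that its wild-type sign is not measured, and went from 3.27 to 6.57 in Zc3h12a-/- cells. Lcn2 went from 4.69 to 8.10 in wild type, while Zc3h12a-/- cells went from 11.02 to 10.91, a near level line. Airn went from 5.90 to 6.85 and from 5.97 to 4.42, and the long RNA E030024N20Rik from 4.72 to 6.45 and from 5.74 to 5.07. With 1 array for each group these differences were not tested.

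The array's control probe sets for Tfrc, which were in none of the comparisons, also differed. The 3' control probe set read 6.02 on the wild-type and 7.55 on the Zc3h12a-/- array of 2 h, a difference of 1.53, while those for the 5' end (2.74 and 2.85) and the middle (3.03 and 3.18) lay at background. The main Tfrc probe set differed by 1.15.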

How the results depend on the processing

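No paired analysis was possible because the labels give no replicate numbers, other than the pairing by time that limma's time block makes within 0, 1 and 4 h, whose effect is given below. The counts of genes higher and lower at 2 h, 247 and 356, were 150 and 201 with the mean of all probe sets, 694 and 1285 at 1.5-fold, and 113 and 73 at 3-fold. Cyclic loess gave 237 lower. The cause of these shifts beyond the threshold itself was not tested. Over 0, 1 and 4 h, limma called 507 higher and 880 lower under eBayes with trend and robust options, 32 and 7 with no time block, and 712 lower after housekeeping centring. Leaving out 1 array, which removes its time, gave 136 to 256 higher and 125 to 222 lower. The departure test called 0 genes under each alternative, with the smallest adjusted p at 0.488, without a 4 h array.

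Of the 247 higher genes, 246 were still at least 2-fold higher after cyclic loess and 214 after housekeeping centring, and of the 356 lower ones 237 and 356. Of the named genes at least 2-fold apart at 2 h, only Smtnl2 changed sign, to 0.34 when multi-transcript probe sets were left out, where it rests on another probe set. Of those under 2-fold apart, 5 changed sign under an alternative (Cd68, Ms4a1, Mvd, Tlr3 and Tpsb2). Averaging all probe sets also shrank single differences, such as that of Pde1c from -2.58 to -0.32, Zmynd8 from -2.73 to -0.46, Airn from -2.42 to -0.80, Acta2 from -2.65 to -0.98 and Cd55 from 3.70 to 1.54. Of 893 values of named genes under the alternatives, 789 moved by less than the SD of the gene's difference over the other 3 times, and of 198 list medians 133 did. Those of feedback genes ran from -0.20 to 0.09, of B cell markers from -0.18 to 2.11 and of neutrophil markers from 0.10 to 1.87.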

Other observations

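The chromosomal neighbours of Zc3h12a in the RefSeq order were also read. Of the 40 nearest kept genes, 20 on each side, 0 were at least 2-fold higher and 1 lower at 2 h (Csf3r, -1.18), with a median of -0.23 and a range from -1.18 to 0.49. Around the run of 5 kept Sprr2 genes, of the 10 nearest kept genes on each side 1 was higher (S100a9, 2.82) and 0 lower. Over all genes kept, 1.97% were higher and 2.84% lower at 2 h.

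Other motifs were counted in the 250 bases before the start. The STAT element TTCNNNGAA was held by 7.02% of all promoters, 9.09% of those of genes higher at 2 h and 3.7% of those of genes lower. For the C/EBP element TTGCNNAA the shares were 9.56%, 11.7% and 10.1%, for the E-box CACGTG 6.02%, 3.9% and 7.41%, for the NF-kB consensus 7.25%, 9.52% and 8.99%, and for the interferon response element 2.98%, 0.866% and 3.17%. Both strands were searched, genes with several promoters count more than once, and the counts have no test.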
